A study of Mus musculus with 47 samples.

Results

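The genes described here are those of the cell cycle and of DNA replication, 46 listed symbols that were sought in a table of counts for 14221 genes of the mouse hypothalamus. Rows were found for 40 of the 46 symbols. Rrm2, Ccnb1, Cdk1, Bub1, Top2a and Birc5 were not analysed here. The 40 genes comprised 6 cyclins and kinases of the G1 phase, 4 inhibitors of cyclin-dependent kinases, 19 genes of DNA replication and nucleotide supply, and 11 mitotic genes.

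The libraries were made from a punch of the hypothalamus of 47 male ob/ob mice, 11 weeks of age by their labels, with 1 mouse per library and separate mice on each day. All 7 groups carried the ob/ob genotype, which removes leptin, and had received a single intracerebroventricular (icv) injection. FGF1, a growth factor given at 3 µg, was compared with vehicle 1, 5 and 42 days later, with 10 mice given FGF1 and 4 given vehicle on Day 1, 9 given FGF1 on Day 5 and 5 per group on Day 42. Vehicle-treated mice were pair-fed to the FGF1-treated mice and are labelled non-diabetic on Days 1 and 42, whereas Day 5 had 7 vehicle-treated mice labelled non-diabetic and 7 labelled diabetic. The protocol in the labels counts only 7 vehicle-treated mice on Day 5, and the study describes its ob/ob mice as diabetic, so what sets the 2 vehicle groups of that day apart is uncertain. Each day had a preparation code of its own, so day and preparation cannot be told apart, but every comparison of FGF1 with vehicle lay within 1 day.

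Progress through the cell cycle is driven by cyclins bound to cyclin-dependent kinases. D-type cyclins with Cdk4 and Cdk6, and then Cdk2, phosphorylate the retinoblastoma protein and release E2F transcription factors, which switch on the genes of DNA replication. The MCM helicase is loaded at origins in G1 and unwinds DNA in S phase, where clamp, polymerases and ligase copy it, and a later set of genes builds the spindle and divides the cell. In the adult hypothalamus most neurons no longer divide, while oligodendrocyte precursors, microglia, endothelial cells and some tanycytes, the glia that line the third ventricle, can. Several of the genes, Pcna among them, also act in DNA repair outside division.

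Total counts per library ran from 1243280 to 47082403 on Day 1, from 7579695 to 30009258 on Day 5 and from 19416026 to 43934003 on Day 42. The shallowest library was FGF1-treated mouse 1 of Day 1, with 539 genes at 0. All 12 hypothalamic neuron markers examined had rows in the table, against 2 of 8 for the pituitary and 2 of 8 for blood leukocytes. Levels are given as normalized counts, which are CPM after TMM scaling, and log2 fold changes (log2 FC) are from the edgeR quasi-likelihood fit. A gene was called where its p-value, adjusted by Benjamini-Hochberg over all genes, was under 0.05 and its absolute log2 FC was above 0.5.

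On Day 1 after icv FGF1, 22 of the 40 genes were higher with FGF1 than with vehicle and 2 were lower, which is 55.0% and 5.0% of them, where 11.5% and 8.05% of all genes tested were called. The largest differences were those of Mki67, Mcm3, Prc1, Ccnd1 and Mcm5, each with a log2 FC above 2. For 13 of the 40 genes all 10 mice given FGF1 exceeded all 4 given vehicle, and for 0 they all lay below them, where 7.56% and 6.81% of all genes did so. The median log2 FC of the 40 genes was 0.52, against 0.0067 over all genes. These are values of bulk tissue, in which fewer cells of a type and less RNA per cell cannot be told apart. On Day 5, 3 of the 40 genes were higher than in either vehicle group, and on Day 42 none was called.

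**Figure D1:**
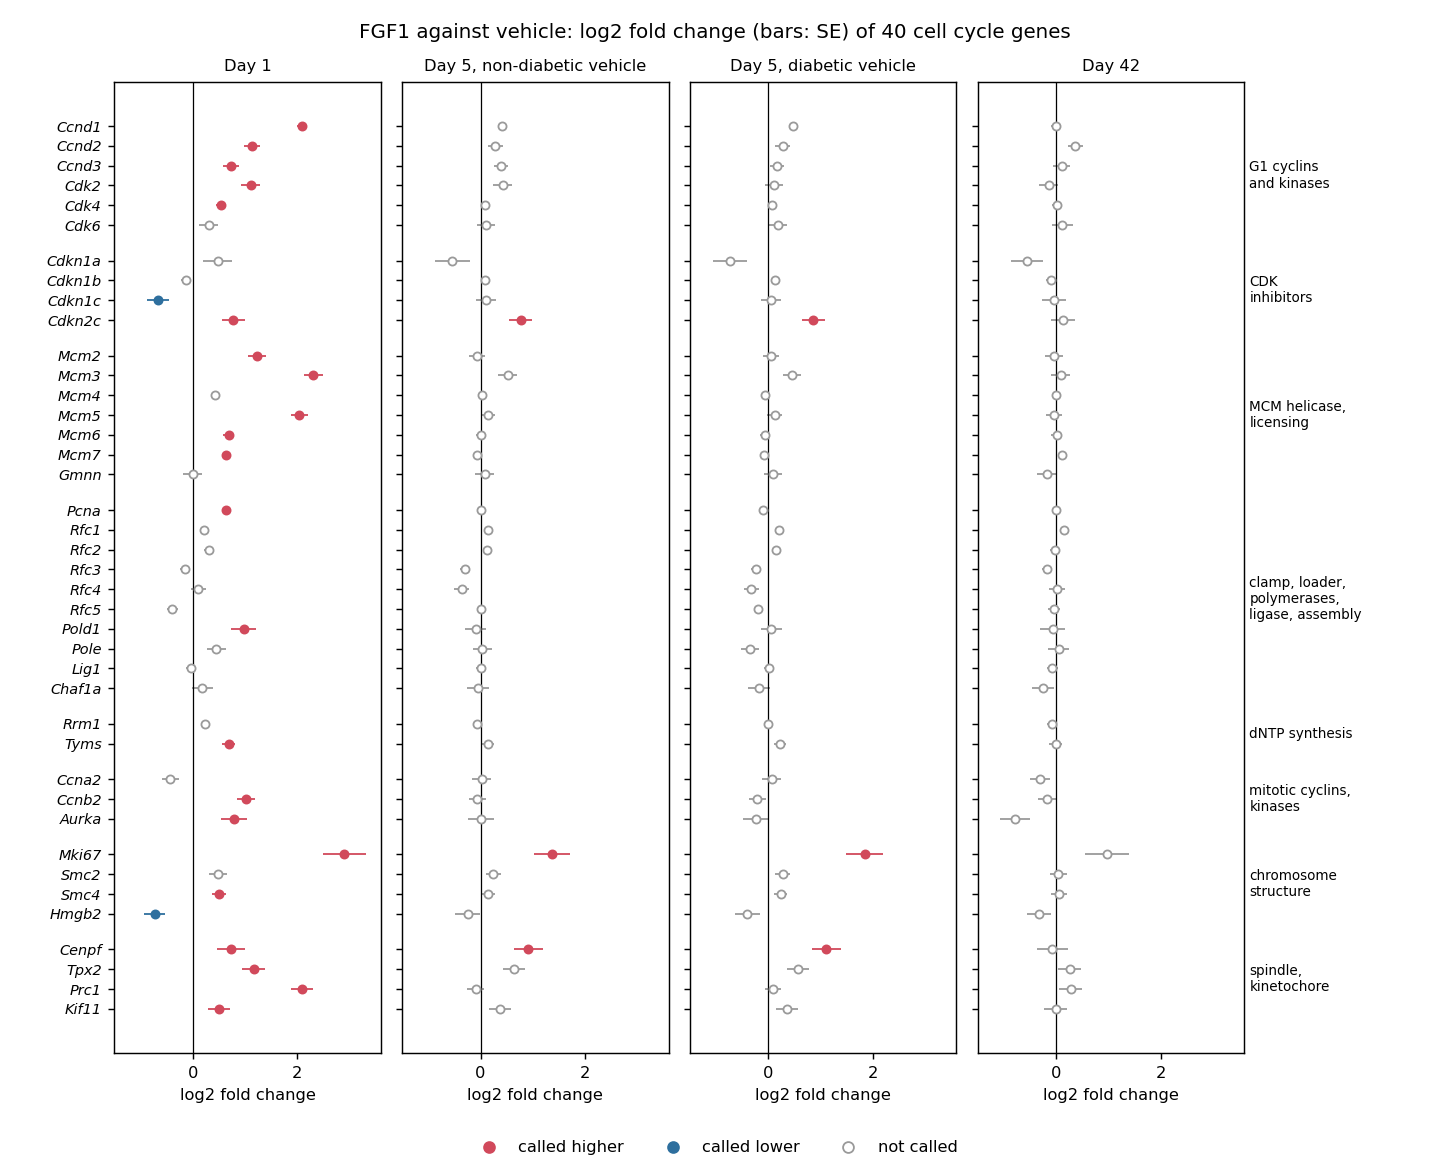
Each panel shows the log2 FC of FGF1 against vehicle on the horizontal axis, with its standard error as a bar, for the 40 genes arranged by role on the vertical axis. Filled red points were called higher, filled blue points lower and open grey points were not called: Day 1 has 22 red and 2 blue points, each Day 5 comparison has 3 red points, and Day 42 has none.

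Of the 6 G1 cyclins and kinases, 5 were higher on Day 1. Ccnd1, the cyclin D1 gene through which growth factor signals reach the cell cycle, lay at 31.97, 33.1, 40.4 and 41.7 normalized counts in the 4 vehicle-treated mice and from 132 to 171 (median 157) in the FGF1-treated mice (log2 FC 2.08, SE 0.0985, adjusted p = 3.5e-22). The gap between the groups was wider than the range within either of them. Ccnd2, which encodes cyclin D2, lay at 21.1, 23.3, 25.2 and 29.1 with vehicle and from 41.6 to 62.1 (median 56.9) with FGF1 (log2 FC 1.14, SE 0.15, adjusted p = 2.4e-08), again without overlap. For both cyclins the two-sided exact permutation test over mice gave an unadjusted p of 0.000999, the smallest that 10 against 4 mice allow and one that 13 of the 40 genes reached. Those 13 were the genes of the 40 whose groups did not overlap, as was so for 7.56% of all genes in the higher and 6.81% in the lower direction. The weakest of the 24 called genes in this exact test were Kif11 (unadjusted p = 0.410), Cenpf (0.0480), Smc4 (0.0420), Cdkn1c (0.0270), Hmgb2 (0.0240) and Pold1 (0.0150).

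Ccnd3, the third D-type cyclin, was less far apart, at 15.0, 17.5, 21.3 and 23.4 with vehicle and 20.4 to 43.6 (median 29.4) with FGF1 (log2 FC 0.73, SE 0.15, adjusted p = 9.5e-05), and its groups overlapped. Cdk2, the kinase that acts with cyclins E and A at the start of S phase, lay at 4.68, 5.71, 6.69 and 6.91 with vehicle and 3.26 to 15.3 (median 12.5) with FGF1 (log2 FC 1.11, SE 0.18, adjusted p = 1.9e-06). Its lowest FGF1-treated mouse was the shallow library, where Cdk2 had 4 counts, and the other 9 FGF1-treated mice were all above the vehicle-treated mice. Cdk4, a partner of the D-type cyclins, lay at 36.3, 55.6, 57.4 and 57.4 with vehicle and 54.6 to 86.5 (median 75.8) with FGF1 (log2 FC 0.53, SE 0.0934, adjusted p = 7.8e-06), and without vehicle-treated mouse 2 its log2 FC was 0.40. Cdk6, the other partner, was not called (log2 FC 0.30, SE 0.19, adjusted p = 0.184).

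The 4 inhibitors did not move together. Cdkn2c, an INK4 inhibitor that binds Cdk4 and Cdk6, lay at 0.821, 1.04, 1.07 and 1.13 with vehicle and 1.18 to 2.72 (median 1.70) with FGF1 (log2 FC 0.78, SE 0.22, adjusted p = 0.00284), and was called higher, a call lost with limma voom (adjusted p = 0.0950). Cdkn1c, which encodes the CIP/KIP inhibitor p57, lay at 3.49, 3.77, 4.80 and 5.91 with vehicle and 0.815 to 4.64 (median 2.46) with FGF1 (log2 FC -0.67, SE 0.21, adjusted p = 0.00920), and was called lower, although its groups overlapped and its adjusted p was 0.0776 without vehicle-treated mouse 1. Cdkn1b, which encodes p27, had a log2 FC of -0.14 with adjusted p = 0.150. Cdkn1a, which encodes p21 and is a target of p53, ranged from 26.0 to 122 (median 88.2) with FGF1 and lay at 38.2, 59.2, 67.7 and 78.7 with vehicle, and was not called (log2 FC 0.47, SE 0.27, adjusted p = 0.152).

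In the MCM helicase, which has 6 subunits, 5 subunit genes were called higher on Day 1 and the remaining one, Mcm4, passed the p-value threshold at a log2 FC of 0.43 (adjusted p = 5.3e-05). Mcm3 lay at 1.78, 2.25, 2.47 and 2.52 normalized counts with vehicle and from 7.00 to 16.5 (median 10.8) with FGF1 (log2 FC 2.31, SE 0.19, adjusted p = 4.4e-14). Mcm5 lay at 2.43, 2.52, 2.54 and 2.75 with vehicle and 6.67 to 13.8 (median 9.36) with FGF1 (log2 FC 2.04, SE 0.15, adjusted p = 5.3e-15). Per kb of exon, the median levels with vehicle were close for Mcm3 (0.629), Mcm5 (0.633) and Mcm2 (0.634), the genes with the largest log2 FCs of the 6, and higher for Mcm7 (3.43), Mcm6 (3.78) and Mcm4 (6.14). Mcm2 followed, at 2.96, 4.40, 4.42 and 4.92 with vehicle and 7.37 to 15.2 (median 9.54) with FGF1 (log2 FC 1.23, SE 0.17, adjusted p = 7.4e-08), with FGF1-treated mouse 6 set apart at the top. For Mcm6, at 15.3, 17.4, 17.8 and 22.4 with vehicle and 20.4 to 34.8 (median 29.6) with FGF1, the log2 FC was 0.68 (adjusted p = 4.2e-07). Mcm7 lay at 13.0, 15.0, 15.4 and 15.8 with vehicle and 19.2 to 27.5 (median 22.4) with FGF1, with a log2 FC of 0.63 (adjusted p = 1.9e-08).

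The lowest FGF1-treated mouse lay above the highest vehicle-treated mouse for Mcm2, Mcm3, Mcm4, Mcm5 and Mcm7, while Mcm6 overlapped in the shallow library. Mcm4 itself lay at 18.2, 21.7, 22.4 and 24.3 with vehicle and 26.1 to 33.2 (median 29.0) with FGF1. Gmnn, which encodes geminin, the protein that keeps origins from being licensed again by binding Cdt1, was not called (log2 FC 0.0026, adjusted p = 0.995), at 2.90, 2.98, 3.19 and 3.56 with vehicle and 2.33 to 6.52 (median 3.13) with FGF1.

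Among the 10 genes of the clamp, its loader, the polymerases, the ligase and chromatin assembly, 2 were called higher and none lower. Pcna, which encodes the sliding clamp that holds the polymerases on DNA, lay at 24.6, 24.6, 28.0 and 37.0 with vehicle and 39.6 to 51.0 (median 45.0) with FGF1 (log2 FC 0.64, SE 0.0859, adjusted p = 3.4e-08), with no overlap. Pold1, the catalytic subunit of polymerase delta, lay at 1.58, 2.58, 3.50 and 4.42 with vehicle and 3.13 to 8.96 (median 6.32) with FGF1 (log2 FC 0.97, SE 0.23, adjusted p = 6.6e-04), and its groups overlapped. Pole, the catalytic subunit of polymerase epsilon, had a log2 FC of 0.45 (adjusted p = 0.0458), under the fold threshold.

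None of the 5 clamp loader genes was called. Their log2 FC ran from -0.39 for Rfc5 (adjusted p = 0.00121) through -0.15 for Rfc3, 0.11 for Rfc4 and 0.22 for Rfc1 to 0.30 for Rfc2 (adjusted p = 0.00578). Lig1, which joins Okazaki fragments, had a log2 FC of -0.029 (SE 0.0913), and Chaf1a, of the chromatin assembly factor that follows the fork, 0.19 (SE 0.19). Of the genes of deoxynucleotide supply, Tyms, thymidylate synthase, lay at 2.83, 3.17, 3.22 and 3.61 with vehicle and 4.52 to 7.33 (median 5.04) with FGF1 (log2 FC 0.69, SE 0.13, adjusted p = 1.3e-05) and was called without overlap. Rrm1, the large subunit of ribonucleotide reductase, had a log2 FC of 0.23 (adjusted p = 0.0162).

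Of the 11 mitotic genes, 8 were higher on Day 1 and 1 was lower. Mki67, which encodes the proliferation antigen Ki-67, lay at 0.423, 0.632, 0.738 and 1.19 normalized counts with vehicle and from 1.52 to 9.69 (median 5.11) with FGF1 (log2 FC 2.90, SE 0.42, adjusted p = 1.6e-07). This was the largest log2 FC among the 40 genes, and the groups did not overlap. Prc1, which bundles microtubules of the central spindle, lay at 1.04, 1.19, 1.35 and 1.61 with vehicle and 2.93 to 8.15 (median 5.62) with FGF1 (log2 FC 2.09, SE 0.20, adjusted p = 8.2e-12), also without overlap. Ccnb2, a mitotic B-type cyclin, was the third mitotic gene without overlap, at 0.988, 1.01, 1.07 and 1.30 with vehicle and 1.63 to 2.72 (median 2.28) with FGF1 (log2 FC 1.02, SE 0.16, adjusted p = 1.7e-06).

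Tpx2, a spindle assembly factor that activates Aurora A, lay at 1.55, 1.86, 1.95 and 2.13 with vehicle and 0.963 to 6.53 (median 4.55) with FGF1 (log2 FC 1.17, SE 0.22, adjusted p = 2.0e-05). Aurka, the Aurora A kinase itself, lay at 0.536, 0.659, 1.16 and 1.26 with vehicle and 0.906 to 2.36 (median 1.58) with FGF1 (log2 FC 0.78, SE 0.25, adjusted p = 0.00966), and the adjusted p was 0.0510 without vehicle-treated mouse 1 and 0.0739 without mouse 2. For Cenpf, a kinetochore protein, the values were 0.766, 1.02, 1.12 and 1.16 with vehicle and 0.815 to 3.26 (median 1.60) with FGF1 (log2 FC 0.74, SE 0.27, adjusted p = 0.0243), and the adjusted p was 0.05002 without vehicle-treated mouse 1 and 0.0849 without mouse 4. These 3 genes were called, with overlap between the groups and between 1 and 5 normalized counts in the median FGF1-treated mouse.

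Smc4, a core subunit of condensin, lay at 8.27, 8.92, 10.4 and 12.6 with vehicle and 8.96 to 21.2 (median 13.8) with FGF1 (log2 FC 0.50, adjusted p = 0.00293). Kif11, a spindle motor, lay at 1.81, 2.23, 2.77 and 3.11 with vehicle and 0.815 to 4.97 (median 3.41) with FGF1 (log2 FC 0.50, adjusted p = 0.0498). Both genes lay at the thresholds, and their groups overlapped. The call of Kif11 was lost in 7 of 11 alternatives, among them the fits without vehicle-treated mouse 1, 3 or 4 (adjusted p = 0.122, 0.0554 and 0.180). That of Smc4 was lost in 6 of 12, among them the fits without mouse 1 or 4 (log2 FC 0.42 and 0.45). The alternatives counted include the fit without a low-count filter and the main fit without a fold threshold, which cannot lose a call. Smc2, the partner of Smc4, lay just under the fold threshold, at 0.48 (adjusted p = 0.0145). Hmgb2, a chromatin protein of the high mobility group, lay at 8.54, 8.70, 15.9 and 21.3 with vehicle and 6.45 to 10.6 (median 8.37) with FGF1 (log2 FC -0.73, SE 0.20, adjusted p = 0.00241) and was called lower, with an adjusted p of 0.105 without vehicle-treated mouse 2. Ccna2, cyclin A2, had a log2 FC of -0.43 (adjusted p = 0.0368).

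**Figure D2:**
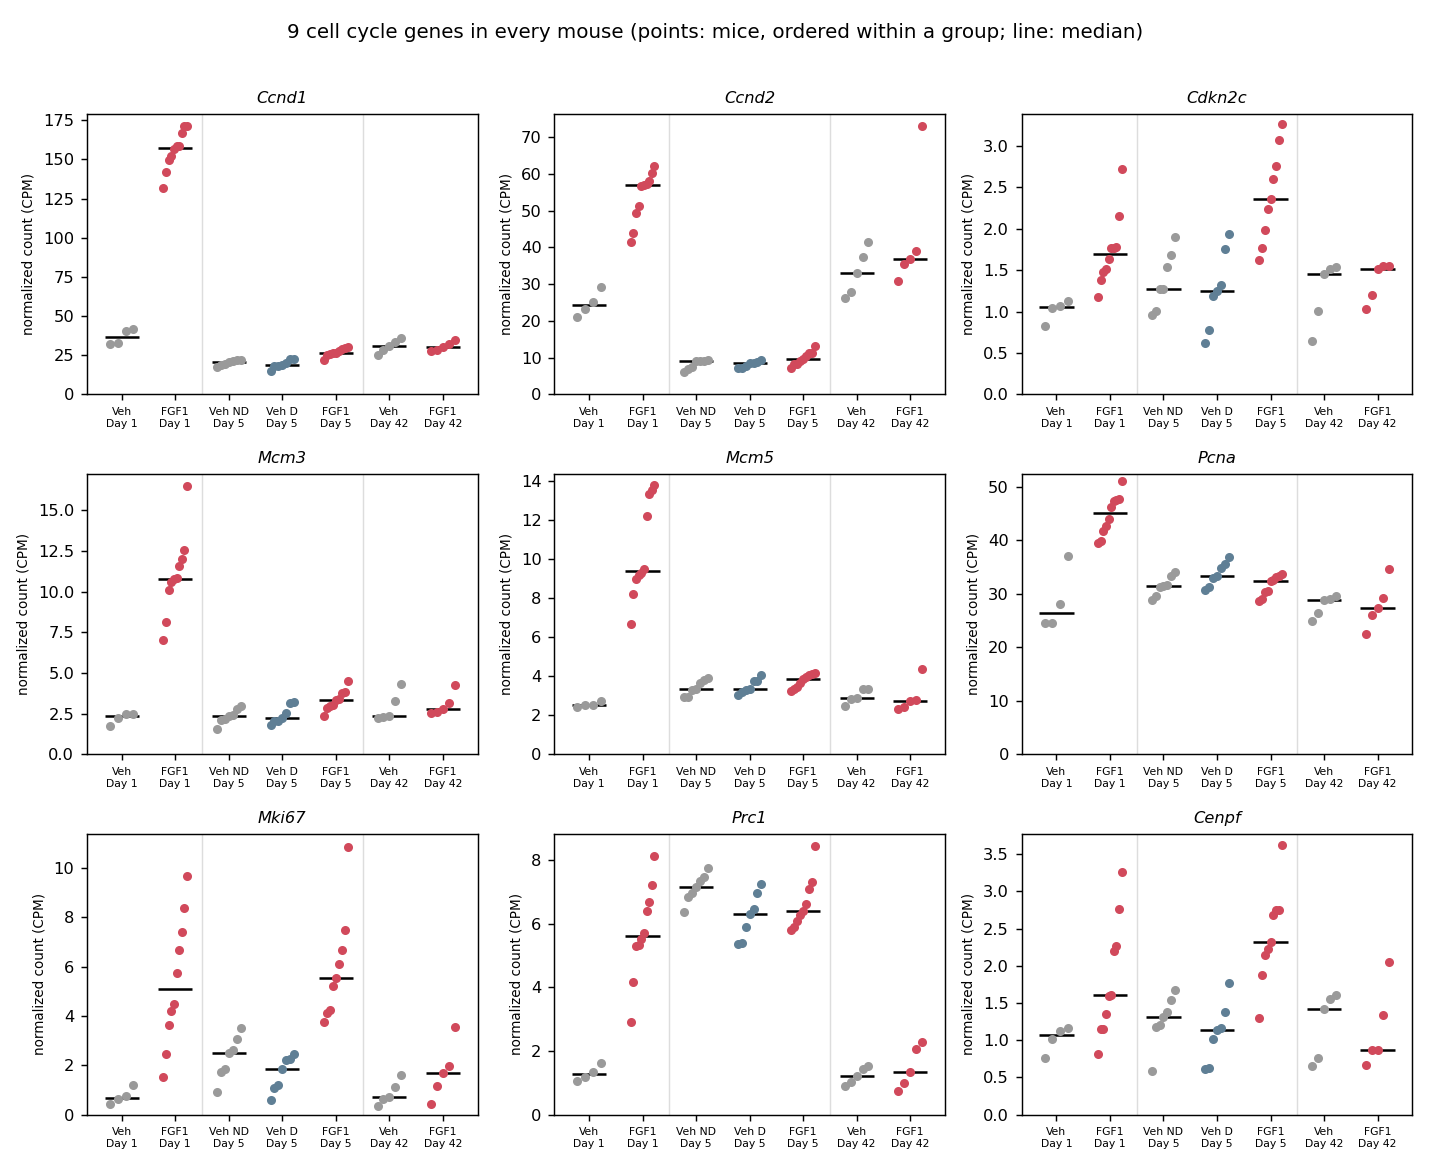
Normalized counts (CPM after TMM scaling, vertical axes) of 9 genes in every mouse of the 7 groups, with a line at each group's median. On Day 1 the FGF1-treated mice stand above the vehicle-treated mice without overlap for Ccnd1, Ccnd2, Mcm3, Mcm5, Pcna, Mki67 and Prc1, and on Day 5 Mki67 stands above both vehicle groups.

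Set side by side by role, the share called higher on Day 1 was 5 of 6 for G1 cyclins and kinases, 1 of 4 for inhibitors, 8 of 19 for replication genes and 8 of 11 for mitotic genes. The share without overlap was 2 of 6, 1 of 4, 7 of 19 and 3 of 11. Median log2 FCs were 0.92, 0.17, 0.43 and 0.74 in the same order. Within the replication genes the MCM helicase and geminin had a median of 0.68, and the clamp, loader, polymerases, ligase and chromatin assembly one of 0.20. Of all genes, 11.5% were called higher on Day 1 and 7.56% lay higher without overlap. The roles were not tested against each other.

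Averaged over the genes of a role on the log2(normalized count + 0.5) scale, G1 cyclins and kinases ran from 4.30 to 5.25 in FGF1-treated mice and 4.03 to 4.09 in vehicle-treated mice of Day 1. Replication genes ran from 3.58 to 4.13 and 3.28 to 3.38. Mitotic genes ran from 1.81 to 2.74 and 1.67 to 1.90, so that here the ranges overlapped, and those of the inhibitors did too, at 3.37 to 3.89 and 3.43 to 3.83. These means describe the mice and carry no test.

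FGF1-treated mice of Day 1 spanned 7.00 to 16.5 normalized counts for Mcm3 and 1.52 to 9.69 for Mki67, against 132 to 171 for Ccnd1. Mouse 5 had the lowest levels of the 10 for Mcm3 (7.00 normalized counts), Mcm5 (6.67), Mki67 (1.52), Tpx2 (0.963) and Prc1 (2.93), while its Ccnd1 was 158, close to the group median of 157. Mouse 6 had the highest levels for Mcm2 (15.2), Mcm3 (16.5), Mcm5 (13.8), Mki67 (9.69) and Tpx2 (6.53), and the lowest Cdkn1a, at 26.0 where the others ranged from 70.9 to 122. Both mice carried the same label. Without mouse 1, the shallow library, 22 genes were higher and 2 lower, the same numbers as with it.

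**Figure D3:**
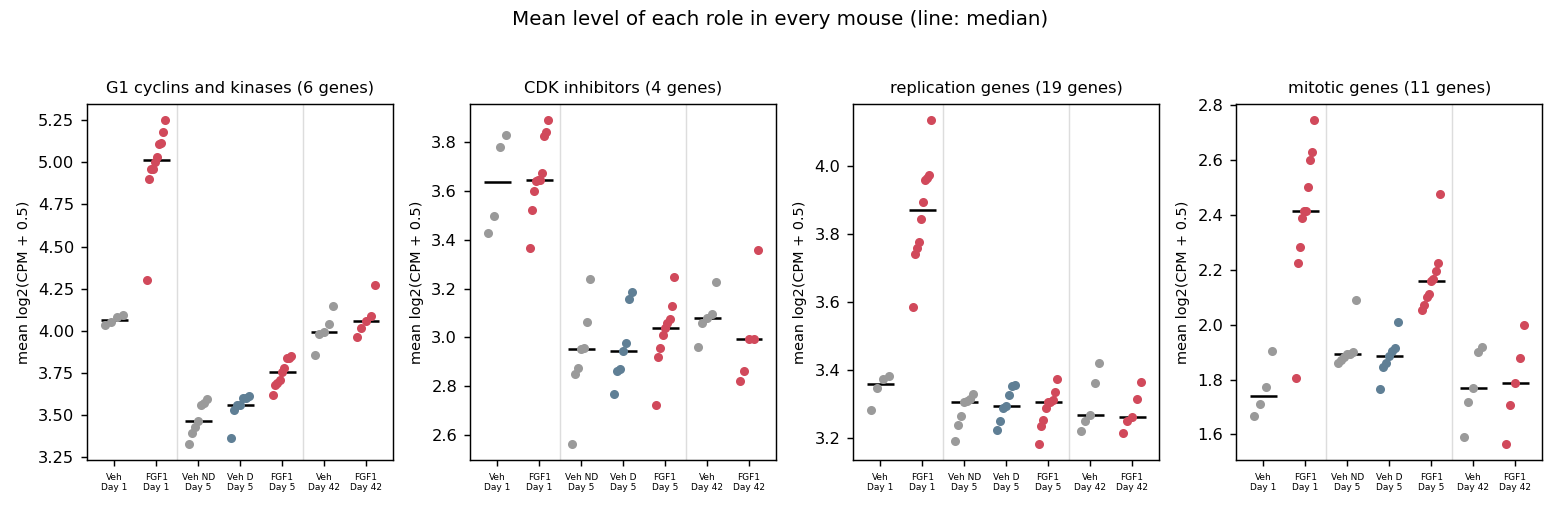
Mean log2(normalized count + 0.5) over the genes of each role (vertical axes) for every mouse of the 7 groups, in panels for 6 G1 cyclins and kinases, 4 inhibitors, 19 replication genes and 11 mitotic genes, with lines at group medians. FGF1-treated mice of Day 1 lie above the vehicle-treated mice of that day for the G1 and replication genes, and overlap with them for the inhibitors and mitotic genes.

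Promoter sequence was compared between roles, because E2F factors bind near the starts of many replication genes, while the cell cycle genes homology region (CHR) and CCAAT boxes recur near the starts of mitotic genes. Promoters of 300 bases (250 before and 50 after the start) were taken from RefSeq on GRCm38.p6 and were matched by symbol for 30 of the 40 genes, with 37 promoters in all. Searched on both strands, with overlapping matches counted separately, were the E2F motifs TTTCCCGC, TTTGGCGC and TTTCGCGC, the CHR letters TTTGAA and the box CCAAT. The promoters printed here belong to the genes that differed most on Day 1, Mcm3 and Mcm5 for replication and Mki67 and Prc1 for mitosis, and to the mitotic cyclin Ccnb2, with the first of 2 promoters listed for Prc1. Capitals mark the matches.
Mcm3 (chr1:20820263-20820562, minus strand): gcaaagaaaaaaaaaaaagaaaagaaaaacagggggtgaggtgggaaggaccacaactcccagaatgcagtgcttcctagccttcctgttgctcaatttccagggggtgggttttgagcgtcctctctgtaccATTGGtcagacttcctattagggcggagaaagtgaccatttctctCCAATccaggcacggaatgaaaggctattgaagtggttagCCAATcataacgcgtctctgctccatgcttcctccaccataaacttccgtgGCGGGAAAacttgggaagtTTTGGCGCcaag
Mcm5 (chr8:75109259-75109558, plus strand): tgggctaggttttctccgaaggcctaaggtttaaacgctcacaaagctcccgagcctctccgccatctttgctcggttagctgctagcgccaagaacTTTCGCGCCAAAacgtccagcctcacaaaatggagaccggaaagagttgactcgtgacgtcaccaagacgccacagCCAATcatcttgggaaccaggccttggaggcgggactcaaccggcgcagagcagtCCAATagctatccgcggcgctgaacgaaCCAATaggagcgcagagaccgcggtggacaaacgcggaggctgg
Mki67 (chr7:135716330-135716629, minus strand): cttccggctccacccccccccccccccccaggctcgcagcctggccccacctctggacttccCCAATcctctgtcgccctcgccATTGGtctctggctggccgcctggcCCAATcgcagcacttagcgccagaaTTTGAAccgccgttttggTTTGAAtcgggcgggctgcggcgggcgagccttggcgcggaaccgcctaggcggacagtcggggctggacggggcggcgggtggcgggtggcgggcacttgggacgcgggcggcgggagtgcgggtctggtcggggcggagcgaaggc
Prc1 (chr7:80294201-80294500, plus strand): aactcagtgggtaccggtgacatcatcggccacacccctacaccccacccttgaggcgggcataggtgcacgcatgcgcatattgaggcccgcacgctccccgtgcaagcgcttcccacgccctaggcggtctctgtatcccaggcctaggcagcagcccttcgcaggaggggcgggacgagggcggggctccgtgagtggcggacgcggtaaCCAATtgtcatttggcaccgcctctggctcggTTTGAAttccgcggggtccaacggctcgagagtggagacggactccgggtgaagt
Ccnb2 (chr9:70421505-70421804, minus strand): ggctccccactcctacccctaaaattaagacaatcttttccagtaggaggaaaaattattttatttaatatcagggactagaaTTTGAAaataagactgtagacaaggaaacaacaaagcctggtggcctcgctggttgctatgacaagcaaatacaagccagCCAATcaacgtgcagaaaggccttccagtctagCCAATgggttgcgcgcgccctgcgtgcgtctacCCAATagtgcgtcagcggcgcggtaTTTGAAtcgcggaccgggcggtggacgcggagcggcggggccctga

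The 2 MCM promoters hold 2 E2F motifs each, which overlap in Mcm5, and no CHR. Those of Mki67, Prc1 and Ccnb2 hold the CHR letters and CCAAT boxes and no E2F motif of these letters. Across the matched genes, E2F motifs were found in 7 of 18 promoters of replication genes (38.9%), in 1 of 10 of the G1 genes and inhibitors (10.0%) and in 0 of 9 of the mitotic genes, against 1.84% of all 32851 promoters and 3.12% of the 14309 promoters of genes with counts. The CHR letters were found in 9 of 9 promoters of mitotic genes, in 1 of 18 of replication genes, that of Mcm2, and in 0 of 10 of the G1 genes and inhibitors. They were in 17.9% of all promoters and 11.6% of those of genes with counts. The 9 mitotic promoters belong to 8 genes, since those listed for Prc1 overlap and hold the same CHR and CCAAT matches. No promoter was matched for the mitotic genes Ccna2, Smc4 and Tpx2.

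CCAAT boxes were found in 9 of 9 mitotic, 11 of 18 replication (61.1%) and 4 of 10 G1 and inhibitor promoters (40%), where 37.4% of all promoters hold one. Split by the Day 1 result instead of by role, E2F motifs were in 6 of 22 promoters of genes called higher and in 2 of 15 of those not called higher. The CHR letters were in 8 of 22 and 2 of 15, and CCAAT boxes in 17 of 22 and 7 of 15. A match of letters is a description of the sequence, and binding was not measured.

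**Figure D4:**
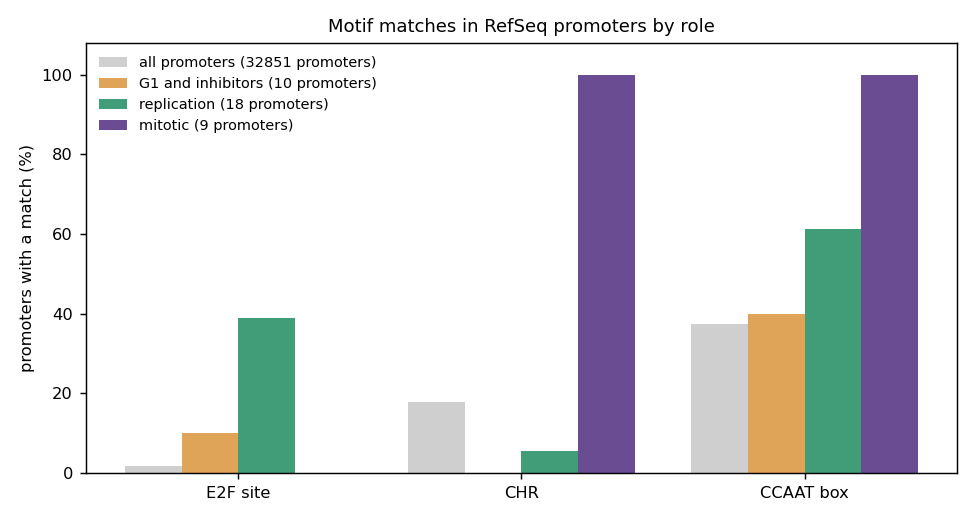
Percentage of promoters (vertical axis, from 0) that hold an E2F motif, the CHR letters or a CCAAT box, for all 32851 promoters, 10 of G1 genes and inhibitors, 18 of replication genes and 9 of mitotic genes. E2F motifs are most frequent in the replication promoters (38.9%), and the CHR letters and CCAAT boxes are in 9 of 9 mitotic promoters, of 8 genes.

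Markers of neurons and of cell types that can divide, or enter from blood, were read in the same libraries. The summed level of 8 microglia markers was 231 to 312 normalized counts with FGF1 and 208 to 237 with vehicle on Day 1, with 5 of the 8 called higher and 1, P2ry12, lower. Oligodendrocyte precursor markers summed to 187 to 275 and 245 to 277, with 0 of 8 higher and 1, Gpr17, lower. Tanycyte markers, of which 7 of 8 had rows, summed to 155 to 325 and 107 to 160.2, with 1 higher and 2 lower. The 1 higher was Nes, an intermediate filament gene of tanycytes and other progenitor-like cells (log2 FC 3.65), and the lower ones were Col23a1 and Slc17a8. Endothelial markers summed to 201 to 261 and 177 to 249 with 2 of 8 higher. The 2 leukocyte markers with rows, Ptprc and Ccr2, were both called higher and summed to 3.26 to 13.5 and 2.87 to 3.37. The 12 hypothalamic neuron markers summed to 934 to 1395 with FGF1 and 1355 to 1782 with vehicle, with 3 called lower, Npy (-0.61), Pmch (-0.55) and Nr5a1 (-0.57), and 1 higher, Pomc (1.71). The part of these cell types in the Day 1 differences was not tested.

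Other genes of the same processes from lists of G1/S regulators, replication, mitosis and p53 targets were counted among the calls of the same fit. Of all genes, 11.5% were called higher on Day 1 and 8.05% lower. Of 22 G1/S regulators tested, 4 were higher (18.2%) and 0 lower, a share not far above that of all genes. Of 44 further replication genes, 10 were higher (22.7%) and 2 lower (4.55%), and of 31 further mitosis genes, 10 were higher (32.3%) and 2 lower (6.45%). Myc, the transcription factor induced by growth factors, had a log2 FC of 2.18 (SE 0.20, adjusted p = 1.0e-12), with levels of 13.4 to 25.6 with FGF1 and 2.89 to 5.44 with vehicle. Cdca8, a subunit of the chromosomal passenger complex, had a log2 FC of 1.94, Tk1, the thymidine kinase of S phase, one of 1.47, and Kif20b, a mitotic kinesin, one of 1.03. Lower without overlap were Tacc3, a spindle protein (-0.78), and Atad5, which unloads the clamp (-0.54).

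Of 18 p53 targets, 5 were higher (27.8%) and 3 lower (16.7%) on Day 1, where 11.5% and 8.05% of all genes were. Gadd45b, a stress-inducible gene, had a log2 FC of 1.97 (adjusted p = 8.1e-09), whereas Trp53inp1 and Sesn1 were lower, at -1.40 and -0.74 (adjusted p = 3.0e-11 and 8.1e-14). Cdkn1a itself was not called.

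On Day 5, FGF1-treated mice were compared with each vehicle group, and both comparisons share the same 9 FGF1-treated mice. Called higher in both were Mki67, Cdkn2c and Cenpf, and 0 of the 40 genes were called lower. That is 3 of 40 where 1.31% of all genes were called higher and 0.232% lower against the non-diabetic group, and 2.36% and 0.499% against the diabetic group. These 3 genes were also among the 22 that were higher on Day 1. Of the 19 replication genes, 0 were called against either vehicle group.

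Mki67 ranged from 3.76 to 10.9 (median 5.54) normalized counts in FGF1-treated mice, from 0.905 to 3.53 (median 2.52) in non-diabetic and from 0.610 to 2.48 (median 1.87) in diabetic vehicle-treated mice. All 9 mice given FGF1 exceeded all 14 given vehicle, with a log2 FC of 1.36 (SE 0.34, adjusted p = 0.0109) and 1.84 (SE 0.36, adjusted p = 3.1e-04). It was the 1 gene of the 40 in this position against the non-diabetic group, where 2.38% of all genes were, and 1 of 2 against the diabetic group, where 3.63% were. The other was Smc2, at 16.5 to 20.6 (median 18.1) with FGF1 and 14.0 to 15.9 (median 15.1) in the diabetic group, with a log2 FC of 0.28 that was not called (adjusted p = 0.259).

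Cdkn2c ranged from 1.62 to 3.26 (median 2.36) with FGF1, from 0.962 to 1.91 (median 1.28) in non-diabetic and from 0.623 to 1.93 (median 1.25) in diabetic vehicle-treated mice (log2 FC 0.77 and 0.86, adjusted p = 0.0260 and 0.00557). Its log2 FC of Day 1 was 0.78. Cenpf ranged from 1.30 to 3.62 (median 2.32) with FGF1, 0.580 to 1.68 (median 1.31) in the non-diabetic and 0.611 to 1.77 (median 1.14) in the diabetic group (log2 FC 0.91 and 1.11, adjusted p = 0.0414 and 0.00548). Its adjusted p against the non-diabetic group was 0.0746 without the 2 deepest FGF1 libraries of that day.

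Ccnd1 passed the p-value threshold on Day 5 but not the fold threshold, with log2 FC 0.42 (adjusted p = 7.9e-04) and 0.48 (adjusted p = 6.6e-05), at 21.7 to 30.0 (median 26.7) with FGF1, 17.4 to 21.9 (median 20.5) in non-diabetic and 14.9 to 22.7 (median 19.0) in diabetic vehicle-treated mice. Mcm3 had a log2 FC of 0.52 and 0.45 (adjusted p = 0.0884 and 0.0959), and Mcm5 one of 0.14 and 0.12 (adjusted p = 0.71 and 0.687). Prc1, among the largest differences of Day 1, gave log2 FCs of -0.10 and 0.094 against the 2 vehicle groups of Day 5. Rfc3, a clamp loader subunit, lay below every non-diabetic vehicle-treated mouse in every FGF1-treated mouse (7.16 to 8.64 (median 8.22) against 8.85 to 11.2 (median 9.94), log2 FC -0.30, adjusted p = 0.0310), under the fold threshold, where 1.55% of all genes lay below. Against the diabetic group 0 of the 40 did, where 2.45% of all genes did.

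Marker sums of Day 5 for microglia were 292 to 362 (median 335) with FGF1, 230.4 to 377 (median 241) in non-diabetic and 212 to 246 (median 228) in diabetic vehicle-treated mice. The highest non-diabetic sum was that of mouse 2. By edgeR, 0 of 8 markers were called against the non-diabetic group and 6 of 8 were higher against the diabetic group. Against the non-diabetic group all 8 had a log2 FC above 0 (0.082 to 0.51), and 5 had an unadjusted p under 0.05, as 16.5% of all genes did. For oligodendrocyte precursors the sums were 469 to 564, 331 to 384 and 329.8 to 359. By edgeR, 1 of 8 precursor markers, Gpr17, was called higher in both comparisons. All 8 had a log2 FC above 0 in both (0.043 to 1.80 and 0.11 to 1.85). At an unadjusted p under 0.05 were 4 and 6 of them, where 16.5% and 21.8% of all genes were. Higher without overlap were 3 of the 8 in each comparison, as were 2.38% and 3.63% of all genes. Leukocyte markers summed to 13.0 to 20.2, 7.45 to 21.8 and 6.0 to 10.7, with Ptprc higher in both. Endothelial markers summed to 246 to 308, 225 to 273 and 242 to 279, with 0 of 8 called by edgeR in either comparison and 6 and 2 at an unadjusted p under 0.05. Tanycyte markers summed to 88.9 to 136, 97.5 to 131 and 95.4 to 129.8, with 0 of 7 called by edgeR against the non-diabetic group, 4 at an unadjusted p under 0.05, and 1, Dio2, lower against the diabetic group. Neuron markers summed to 474 to 856, 599 to 881 and 712 to 1015, with 0 of 12 called by edgeR in either comparison and 0 and 1 at an unadjusted p under 0.05, where 16.5% and 21.8% of all genes were. The part of these cell types in the levels of Mki67 and Cenpf was not tested. Of the further pathway genes, 2 of 44 replication genes, one of them Tk1 (log2 FC 0.63), and 1 of 31 mitosis genes, Kif23 (0.82), were higher against the non-diabetic group, where 1.31% of all genes were. Against the diabetic group, 2.27% of the 44 replication genes were higher (1 gene), where 2.36% of all genes were. Lower were Cdc45, part of the active helicase (-0.72, 1 of the 44), and Cks1b, a kinase subunit (-0.75, 1 of the 22 G1/S regulators), where 0.499% of all genes were. Tk1, Kif23 and Cks1b were chosen after their values were seen.

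On Day 42, 0 of the 40 genes were called by edgeR, where 0.0% of all genes were called higher and 0.0% lower, with 3 of the 40 at an unadjusted p under 0.05, against 5.46% of all genes, and 0 called by DESeq2 or limma. The median log2 FC of the 40 was -0.009, with values from -0.79 to 0.97. Ccnd1 lay at 27.8, 28.3, 30.2, 32.3 and 35.0 normalized counts with FGF1 and 25.3, 28.4, 30.7, 33.3 and 36.3 with vehicle (log2 FC -0.0025, SE 0.0951). Mcm3 lay at 2.57, 2.63, 2.82, 3.19 and 4.28 with FGF1 and 2.26, 2.28, 2.37, 3.31 and 4.32 with vehicle (log2 FC 0.088, SE 0.19). The values of both genes overlapped between the groups. Mki67 lay at 0.443, 1.17, 1.70, 1.99 and 3.55 with FGF1 and 0.339, 0.629, 0.726, 1.10 and 1.59 with vehicle (log2 FC 0.97, SE 0.41, adjusted p = 0.793). Aurka had a log2 FC of -0.79 (SE 0.28, adjusted p = 0.543). Of the further G1/S, replication, mitosis and p53 genes, 0 were called on Day 42.

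Between the vehicle groups of Day 5, diabetic against non-diabetic, 0 of the 40 genes were called, and 0.0% of all genes were called higher and 0.0% lower, with 2 of the 40 at an unadjusted p under 0.05, against 1.36% of all genes, and 0 called by DESeq2 or limma. Pole was the 1 gene in which every diabetic mouse lay above every non-diabetic mouse, at 4.48 to 5.40 (median 4.97) and 3.07 to 4.29 (median 3.85) (log2 FC 0.38, adjusted p = 1.00), where 0.0633% of all genes did so.

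The FGF1 effect was then compared between days as a difference of log2 FCs. From Day 1 to Day 5 it was smaller for 14 of the 40 genes and larger for 1, where 8.52% of all genes were called lower and 7.28% higher. From Day 1 to Day 42 it was smaller for 18 and larger for 0, where 9.81% and 6.59% of all genes were called. Of all genes called between Days 1 and 42, 40.2% had the higher value on Day 42, and 50.5% with the size factors of DESeq2, under which 16 of the 40 genes were lower and 0 higher. The same 14 genes were smaller on both later days, and all 14 were among the 22 that were higher on Day 1. By role, the difference from Day 1 to Day 5 was called lower for 3 of 6 G1 cyclins and kinases, 8 of 19 replication genes and 3 of 11 mitotic genes. The Day 1 values took part in both differences, so that a high Day 1 value favours a lower difference in each.

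Prc1 had the largest difference between Days 1 and 5, -2.19 (SE 0.25, adjusted p = 2.7e-09), followed by Mcm5 (-1.90), Mcm3 (-1.79), Ccnd1 (-1.67) and Mki67 (-1.54, adjusted p = 0.0238), for which the adjusted p was 0.0774 without vehicle-treated mouse 2 of Day 1 and 0.133 with the diabetic group as the control of Day 5. Ccnd1 and Mcm3 had differences of -2.09 and -2.22 from Day 1 to Day 42 (adjusted p = 7.4e-17 and 4.0e-09). The 1 gene called with a difference above 0 was Cdkn1c (0.77, adjusted p = 0.0434), which was lower with FGF1 on Day 1 and had a log2 FC of 0.11 on Day 5. Its adjusted p was 0.139 without vehicle-treated mouse 1 of Day 1, 0.0866 without mouse 2 and 0.0814 without non-diabetic mouse 2 of Day 5.

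Levels with vehicle are given by day without a test, since day is also preparation. The median level of Prc1 was 1.27 normalized counts with vehicle on Day 1, 7.16 in the non-diabetic and 6.31 in the diabetic group of Day 5, and 1.22 on Day 42. The Day 1 level of Prc1 with FGF1, a median of 5.62, was thus below that of vehicle-treated mice on Day 5. Pold1 was also highest on Day 5, with vehicle medians of 3.04, 8.12, 7.14 and 2.78. Cdkn1a had medians of 63.5, 5.21, 5.48 and 9.83, and Hmgb2 of 12.3, 2.03, 2.56 and 4.66, both highest on Day 1. Ccnd2 was lowest on Day 5, with medians of 24.3, 8.98, 8.62 and 33.0. For Ccnd1 the medians were 36.7, 20.5, 19.0 and 30.7.

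Divided by exon length, the highest levels with vehicle on Day 1 were those of Cdkn1a (17.9 normalized counts per kb in the median mouse), Cdk4 (17.4), Cdkn1b (11.8), Pcna (11.0), Lig1 (9.49) and Ccnd1 (7.80). The lowest were Mki67 (0.0681), Cenpf (0.0691) and Prc1 (0.154). With FGF1 on Day 1, Ccnd1 was the highest of the 40, at 33.4 per kb, ahead of Cdkn1a (24.8) and Cdk4 (23.3), while Mki67 stood at 0.508. The order of these levels is a description, since the exon length counts every annotated isoform.

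In the GENCODE annotation of GRCm38, Ccnd1 lies on the minus strand at chr7:144929931-144939925, and 1100 of its 4709 exon bases overlap LTO1 on the other strand. Mcm3 lies at chr1:20802968-20820312, Mcm5 at chr8:75109569-75128439, Mki67 at chr7:135689784-135716361 and Prc1 at chr7:80294450-80316259. Exons of Prc1 overlap those of Rccd1 over 11.1% of their length, those of Mcm7 overlap Ap4m1, Cops6, Mir93 and Mir25 over 12.6%, and those of Cdk4 overlap Tspan31 over 19.7%. As a share of exon length, overlaps were largest for Chaf1a with Ubxn6 (52.5%) and Cdkn1c with the antisense Gm44732 (30.7%). The library kit keeps strand, but whether the counting used it is not given in the sources used here, so counts of these genes could include reads of their partners. Pseudogenes named after them are annotated for Pcna (2) and for Ccnd3, Tyms and Ccnb2 (1 each), and reads shared with those could have been split.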

How the data were processed

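RNA of hypothalamic tissue, taken as a punch by the study's methods, was sequenced from 47 mice, and the authors deposited raw counts, whole and not normalized, as one table of 14221 genes that each hold at least 307 counts over all libraries. The submitters' processing notes name STAR, DESeq2 and the build GRCh38. The study's methods give the same build name for a mouse genome, although GRCh38 is the name of a human build, so the mouse build used is uncertain. The program that counted the reads is not given in the sources used here. Samples were grouped by their treatment labels, and mice are numbered within a group in the order of the deposit, which pairs none of them. The columns of all 47 libraries were used as deposited, and no pair of libraries was identical.

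Libraries were scaled by TMM and fitted with edgeR 4.0.16 under R 4.3.3, with 1 mean for each of the 7 groups. Contrasts were tested by the quasi-likelihood F test with Benjamini-Hochberg adjustment over all 14221 genes, and called at an adjusted p under 0.05 with an absolute log2 FC above 0.5. The low-count filter of edgeR removed no gene, so the fit without it is the same fit. The p-values of edgeR rest on the spread between mice within a group, estimated for each gene over all 7 groups together. Single genes were also compared by two-sided exact permutation tests over mice on log2(normalized count + 0.5).

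The genes and the lists were chosen with earlier results of these data known. Values are given most fully for genes called in a comparison of FGF1 with vehicle or without overlap between such groups, in that comparison. The others are given mostly by log2 FC, counts and ranges, with single values added for Gmnn and Cdkn1a on Day 1. From the further pathway lists, up to 5 genes per day and direction are named, those with the largest log2 FC among genes called without overlap. Positions came from GENCODE annotation and promoters from RefSeq, both of the mouse build GRCm38. Tried beside this fit were DESeq2 1.42.0, the DESeq2 size factors under edgeR, limma 3.58.1 voom with sample quality weights, other filters or thresholds, each day alone, merged or exchanged vehicle groups of Day 5, and single libraries left out. The fits that drop 1 vehicle library of Day 5, or its 2 deepest FGF1 libraries, were added after the data were seen. The methods were tested on simulated counts.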

Additional observations from a re-analysis of the deposited data

Results flagged for a closer look

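The FGF1 effect differed between Days 1 and 5, by the edgeR test of the difference, for 15 of the 40 genes. The difference of log2 FCs was below 0 for Ccnd1 (-1.67), Ccnd2 (-0.85), Cdk2 (-0.69), Mcm2 (-1.30), Mcm3 (-1.79), Mcm5 (-1.90), Mcm6 (-0.68), Mcm7 (-0.70), Pcna (-0.64), Pold1 (-1.06), Tyms (-0.55), Ccnb2 (-1.08), Mki67 (-1.54) and Prc1 (-2.19), and above 0 for Cdkn1c (0.77). Of these 15 calls 11 held under every alternative in which the gene was tested. Those of Cdk2, Tyms, Mki67 and Cdkn1c did not. The adjusted p of Cdk2 was 0.0663 and 0.0910 without vehicle-treated mouse 1 or 4 of Day 1, and the difference of Tyms was -0.50 without mouse 1, just under the fold threshold.

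Between Days 1 and 42 the difference was below 0 for 18 genes, Ccnd1 (-2.09), Ccnd2 (-0.77), Ccnd3 (-0.62), Cdk2 (-1.25), Cdk4 (-0.51), Mcm2 (-1.27), Mcm3 (-2.22), Mcm5 (-2.08), Mcm6 (-0.67), Mcm7 (-0.51), Pcna (-0.64), Pold1 (-1.04), Tyms (-0.70), Ccnb2 (-1.19), Aurka (-1.57), Mki67 (-1.93), Tpx2 (-0.90) and Prc1 (-1.81). Of these 18 calls 12 held under every alternative in which the gene was tested. Without vehicle-treated mouse 2 of Day 1, the adjusted p was 0.0990 for Ccnd3, 0.0782 for Pold1 and 0.0643 for Tpx2, and the differences of Cdk4 and Mcm7 were -0.37 and -0.45. Ccnd3 was also lost without mouse 3 of Day 1, FGF1-treated mouse 4 or vehicle-treated mouse 5 of Day 42 (adjusted p = 0.0568, 0.0733 and 0.0945), and Pold1 without the last of these (adjusted p = 0.0764). The calls of Mki67, Pold1 and Tpx2 were lost with limma voom (adjusted p = 0.0629, 0.235 and 0.276). Day and preparation cannot be told apart in any of these differences.

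Single mice stood apart from the rest of their group in 14 of 189 combinations of gene and group examined by Dixon's criterion, which chance flags in about 1 of 20. Of the FGF1-treated mice of Day 1, mouse 1, the shallow library, was lowest for Cdk2 (3.26 normalized counts) and highest for Rfc3 (18.7) and Tyms (7.33), and mouse 6 was highest for Mcm2 (15.2). Vehicle-treated mouse 2 of Day 1 was lowest for Cdk4 (36.3). On Day 42, FGF1-treated mouse 5 was highest for Ccnd2 (73.1) and Mcm5 (4.39), and vehicle-treated mouse 5 was highest for Hmgb2 (12.0).

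On Day 5, FGF1-treated mouse 2 was highest for Kif11 (4.90). In the non-diabetic vehicle group, mouse 3 was highest for Mcm7 (18.6), and mouse 4 was highest for Hmgb2 (3.25) and lowest for Aurka (0.696). In the diabetic vehicle group, mouse 4 was highest for Tpx2 (2.49) and mouse 5 lowest for Hmgb2 (1.36).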

How the results depend on the processing

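No called gene of the 40 changed direction under any alternative tried. With at least 10 counts required in every library, which leaves fewer genes to test, the calls among the 40 genes went from 24 to 13 on Day 1. They went from 3 to 0 and to 1 against the non-diabetic and diabetic groups of Day 5, and from 18 to 10 for the difference between Days 42 and 1. This filter took Mki67, Cdkn2c, Cenpf, Cdk2, Cdkn1c, Tyms, Ccnb2, Aurka, Tpx2 and Kif11 out of the test, so their calls were not retested. The 1 call against the diabetic group is thus of another gene. Of called genes still tested, Smc4 on Day 1 fell under the fold threshold (log2 FC 0.494). So did Cdk4 and Mcm7 for the difference between Days 42 and 1 (-0.491 and -0.496). Against the non-diabetic group of Day 5 there were 5 calls with limma voom, 5 without a fold threshold and 5 with the libraries of the day alone. Against the diabetic group there were 7 with limma voom, 6 higher and 1 lower, 5 without a fold threshold and 5 with the libraries of the day alone. Beyond the lower fold threshold and the smaller fits themselves, the cause was not tested. Left out 1 at a time were the vehicle libraries of Day 1, its shallow FGF1 library and every library of Day 42. Of Day 5, only 1 non-diabetic vehicle library was left out alone, and the other FGF1 libraries of Day 1 were not left out. In these fits the calls ran from 19 to 25 on Day 1 and were 0 in each such fit of Day 42. They ran from 12 to 16 and from 16 to 19 for the differences of Days 5 and 42 from Day 1. Without non-diabetic vehicle-treated mouse 2 of Day 5, the library with the highest microglia markers of its group, there were 3 calls against that group. Without the 2 deepest FGF1 libraries of Day 5 there were 2. Of the 24 calls of Day 1, 16 held under every alternative in which the gene was tested. In all such counts, the fit without a low-count filter and the main fit without a fold threshold could not lose a call. The share of all genes called on Day 1 that were higher was 58.8%, and 50.8% with the size factors of DESeq2, under which 19 of the 40 genes were higher and 2 lower. The median log2 FC of all genes moved by less than 0.1 between scalings. Depth limits the genes under about 1 normalized count, Mki67 and Cenpf with vehicle among them, most of all in the shallow library of Day 1. No paired analysis was possible because each mouse gave 1 library on 1 day and the labels give no numbers that pair mice across groups.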
